A study of Mus musculus with 2 samples.

Results

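The miR-17-92 cluster is a row of 6 microRNA hairpins, Mir17, Mir18, Mir19a, Mir20a, Mir19b-1 and Mir92-1, in the host transcript Mir17hg on mouse chromosome 14. Its members were the rows whose Ensembl identifiers carry those symbols in the GENCODE vM21 annotation, 6 of the 2202 microRNA genes counted. The tissue was gastrocnemius, the large calf muscle, from male B6CASTF1/J mice aged 14 days, which are hybrids of C57BL/6 and CAST/EiJ parents. RNA shorter than 30 nt was sequenced in 1 group of 2 biological replicates, with 1 library per replicate and no second tissue, age or treatment. The labels give both replicates the same donor identifier and mention several males, and do not tell if each replicate was pooled from several animals, so every spread here is between these 2 samples and may be partly technical.

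A cluster of this kind is transcribed as 1 long RNA, from which the nuclear enzyme Drosha cuts each hairpin and the cytoplasmic enzyme Dicer releases a short duplex. One strand of that duplex is kept by an Argonaute protein and pairs with messenger RNAs mainly through its seed, the bases near the 5′ end. The cluster is known from proliferating cells, where the transcription factor MYC activates it, and mice that lack it die at birth with heart and lung defects. Its seeds fall into the miR-17, miR-18, miR-19 and miR-92 families, and related clusters on other chromosomes, miR-106b-25 and miR-106a-363, encode members of several of these families.

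The mature sequences below are the arms for which the hairpins are best known, printed because the seed sorts the 6 hairpins into 4 groups and because near-identity decides which reads can be assigned to 1 hairpin. Capitals mark the seed, bases 2 to 8 from the 5′ end. The sequences are from RefSeq on GRCm38.p6, where all 6 hairpins were found at the coordinates that GENCODE gives.
miR-17-5p (Mir17): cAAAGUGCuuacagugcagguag
miR-20a-5p (Mir20a): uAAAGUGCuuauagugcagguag
miR-18a-5p (Mir18): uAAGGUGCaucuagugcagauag
miR-19a-3p (Mir19a): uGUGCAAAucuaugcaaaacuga
miR-19b-3p (Mir19b-1): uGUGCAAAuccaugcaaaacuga
miR-92a-3p (Mir92-1): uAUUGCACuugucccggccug

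With positions counted from 1 at the 5′ end and the first-named sequence's base first, miR-17-5p and miR-20a-5p differ by C1U and C12U, both outside the seed. The miR-18a-5p sequence differs from miR-17-5p by 6 substitutions over 23 bases, of which A4G lies within the seed. The pair miR-19a-3p and miR-19b-3p differ by U11C alone. The miR-19b-3p sequence is also encoded by Mir19b-2 and the miR-92a-3p sequence by Mir92-2, both on chromosome X. A hairpin's count pools whatever reads came from its 2 arms.

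On mm10 the cluster lies on the plus strand of chromosome 14. Mir17 (ENSMUSG00000065508.1) spans 115043671 to 115043754. It is followed by Mir18 (ENSMUSG00000065403.1) at 115043851 to 115043946, Mir19a (ENSMUSG00000065416.1) at 115044000 to 115044081 and Mir20a (ENSMUSG00000065442.1) at 115044157 to 115044263. The last are Mir19b-1 (ENSMUSG00000076256.1) at 115044305 to 115044391 and Mir92-1 (ENSMUSG00000076062.1) at 115044427 to 115044506. The 6 hairpins fill 536 of the 836 bases from the first to the last, with gaps of 35 to 96 bases between neighbours. In GENCODE vM21 all 6 lie in exon 2 of the single annotated Mir17hg transcript, a lincRNA gene of 3849 bases (115042879 to 115046727), and begin 792 bases from its start. The hairpins ranged in length from 80 to 107 bases and in GC content from 43.7 to 47.5%. Their predicted folding energy ranged from -38.7 to -29.2 kcal/mol by RNAfold. None of the 6 had a read on the opposite strand in either library.

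The 8189059 reads of replicate 2 yielded 2211254 counts on the own strand of annotated microRNA genes, and the 10056843 reads of replicate 1 yielded 2743657. Reads that mapped to several loci, 52.1% in replicate 2 and 44.0% in replicate 1, are in no gene's count. CPM, counts scaled to a common library total, uses these assigned counts as that total, and was not divided by hairpin length, since each read comes from 1 mature-sized RNA. Where no read was counted, the data allow a level of up to 3 counts (1.36 CPM for replicate 2, 1.09 CPM for replicate 1), and such limits and all intervals cover counting error only. Of the markers listed for skeletal muscle, all 8 were detected, 6 of them at 10 CPM or more in each library. The muscle microRNA Mir206 held nearly all of their assigned counts, at 67909 of 69130 CPM in replicate 2 and 68288 of 69451 CPM in replicate 1. The other 7 had mean levels from 1.82 CPM (Mir133a-2) to 611 CPM (Mir486), with Mir1a-1 at 12.2, Mir133a-1 at 17.0 and Mir133b at 26.2 CPM. Reads that map to several gene copies, such as Mir1a-1 and Mir1a-2 or Mir133a-1 and Mir133a-2, are left out. The levels of such copies do not show how much of the microRNA the muscle held. Markers of other cells were also present. In replicate 2, Mir126a of endothelium was at 80432 CPM, the smooth muscle pair summed to 34921 CPM, the 4 leukocyte markers to 1048 CPM and the 2 erythroid markers to 571 CPM, and Mir122 of liver was at 132 CPM. In replicate 1 the values in the same order were 98087, 36704, 977, 384 and 108 CPM. Of the 6 neuron markers, 5 had no count in either library, and Mir9-3 had 1 in replicate 2. These are numbered gene copies, and reads that map to several copies are in no count. The missing counts therefore do not show that the microRNAs were absent. In bulk tissue, fewer cells of a type and less RNA per cell cannot be told apart, and the part of each cell type in the cluster's counts was not tested.

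The 6 hairpins together held 7794 counts in replicate 2 and 9496 in replicate 1. Their share of assigned counts was 0.352% (95% Wilson interval 0.345 to 0.360) in the library of replicate 2, against 0.346% (0.339 to 0.353) for replicate 1, a mean of 0.349% ± 0.00450 (SD, n = 2). The counts were divided very unequally, but reads of miR-92a-3p and miR-19b-3p that map to several loci are left out. The division therefore describes assigned counts and does not show how much microRNA came from each hairpin. Mir17 and Mir20a of the miR-17 family made up 59.5% and 21.7% of the cluster's counts in replicate 2, and 57.4% and 21.9% in replicate 1. In replicate 2 Mir92-1 made up 12.7% and Mir18 6.07%, against 12.1% and 8.62% in replicate 1, while the miR-19 hairpins together had 1 count in replicate 2 and 6 in replicate 1.

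**Figure D1:**
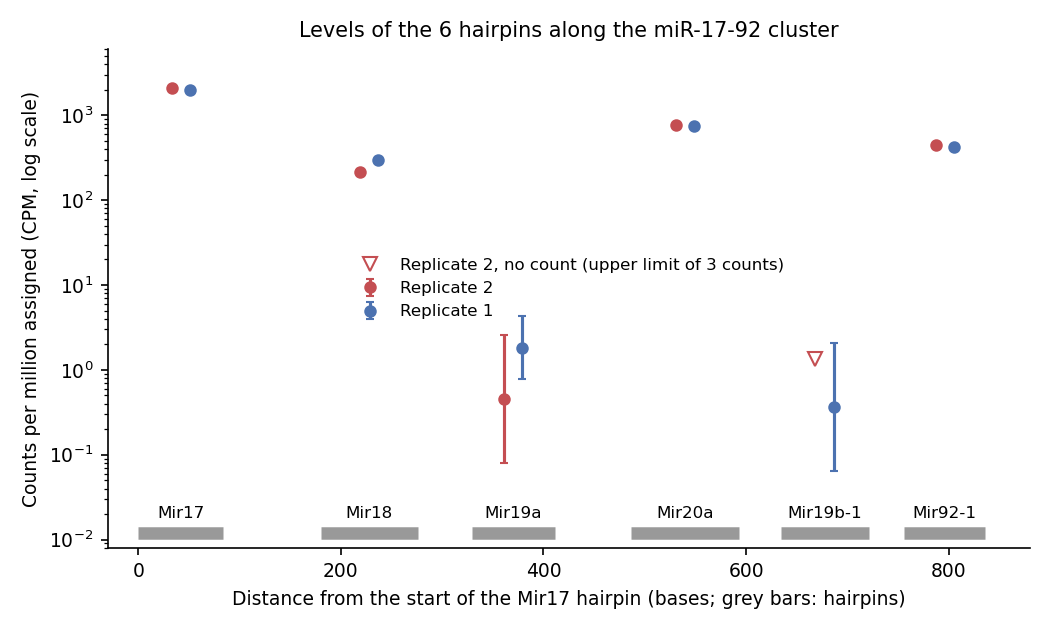
CPM of each hairpin (log axis) in replicate 2 and replicate 1, against the distance in bases from the start of the Mir17 hairpin; bars are 95% Wilson intervals, grey bars the hairpins, and the open triangle the limit of 3 counts where no read was counted. Mir17, Mir20a, Mir92-1 and Mir18 lie between 214 and 2098 CPM, and Mir19a and Mir19b-1, which lie between them in the transcript, at 1.82 CPM or less.

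The miR-17 family, whose known targets include messenger RNAs of the cell cycle inhibitor p21 and of E2F1, supplied the 2 hairpins with the most assigned counts. Mir17 had 4640 counts in replicate 2 and 5446 in replicate 1, which is 2098 and 1985 CPM (mean 2042 CPM ± 80.2, SD, n = 2), and ranked 55 of 2202 genes. Mir20a had 1692 counts in replicate 2 and 2078 in replicate 1, or 765 and 757 CPM (mean 761 CPM ± 5.51), and ranked 84. Mir17 was 2.74 times Mir20a in replicate 2 and 2.62 times in replicate 1, so the ratio within a library was close in both (2.68 ± 0.0859). Mir17 is the first hairpin of the transcript and Mir20a the fourth.

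Mir92-1, the last hairpin, encodes miR-92a, which is known from mouse endothelium, where it restrains vessel growth and targets the integrin subunit Itga5. It had 988 counts in replicate 2 and 1147 in replicate 1, or 447 and 418 CPM (mean 432 CPM ± 20.3), and ranked 113. Its ratio to Mir17 was 0.213 in replicate 2 and 0.211 in replicate 1. A stretch of 22 bases that covers miR-92a-3p is identical in Mir92-2, so a read of 21 or 22 bases from it maps to both loci and is in no count. How many reads were lost in that way was not measured, and the value of Mir92-1 does not show how much miR-92a the muscle held.

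Mir18 encodes miR-18a, whose known targets include the message of connective tissue growth factor. It had 473 counts in replicate 2 and 819 in replicate 1, or 214 and 299 CPM (mean 256 CPM ± 59.8), and ranked 132. Of the 4 members above 10 CPM, it had the largest difference between the libraries as a ratio. Its ratio to Mir17 was 0.102 in replicate 2 and 0.150 in replicate 1, whereas that of Mir20a was 0.365 in replicate 2 and 0.382 in replicate 1. Its longest stretch in common with another annotated microRNA hairpin was 17 bases, with Mir18b.

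The miR-19 hairpins were at the limit of detection. Mir19a had 1 count in replicate 2 and 5 in replicate 1, or 0.452 CPM (95% Wilson interval 0.0798 to 2.56) and 1.82 CPM (0.778 to 4.27), and ranked 398. Mir19b-1 had 0 counts in replicate 2 and 1 in replicate 1, where it was at 0.364 CPM (0.0643 to 2.06), and ranked 576. Mir17 was 1089 times Mir19a in replicate 1 (exact 95% interval of the count ratio 466 to 3356). In replicate 2 the ratio was 4640, with an exact interval of 832 to 183309 because it rests on 1 count. In replicate 2, where Mir19b-1 had 0 counts, the exact 95% interval of the ratio of Mir17 to Mir19b-1 began at 1257. With the limit of 3 counts in place of 0, that ratio would be 1547. In replicate 1, where Mir19b-1 had 1 count, the ratio was 5446 and its exact interval began at 977.

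The low counts of Mir19a and Mir19b-1 stand beside different sequence facts. Mir19b-1 has 25 bases in common with Mir19b-2, a stretch that covers the whole of miR-19b-3p, and Mir19b-2 had no count in either library. Reads of that arm map to both loci, and the counts do not show how much miR-19b was present. The longest stretch that Mir19a has in common with any other of the 2202 annotated hairpins is 13 bases, shorter than its mature sequence of 23, so an exact full-length read of miR-19a-3p maps to no second annotated hairpin. The rest of the genome was not searched, and how the mapping treated the 1-base difference from miR-19b-3p is not given in the sources used here.

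In order of assigned CPM the hairpins stood as Mir17, Mir20a, Mir92-1, Mir18, Mir19a and Mir19b-1. Reads of miR-92a-3p and miR-19b-3p that map to several loci are left out. The places of Mir92-1 and Mir19b-1 therefore hold for assigned counts only. The library values of each of the first 4 did not overlap those of the next in that order. Mir20a was 1.71 times Mir92-1 in replicate 2 and 1.81 times in replicate 1, and Mir92-1 was 2.09 times Mir18 in replicate 2 and 1.40 times in replicate 1, so the closest neighbours differed between the libraries. Mir19a and Mir19b-1 were not distinguishable at this depth, with 1 against 0 counts in replicate 2 and 5 against 1 in replicate 1. With 2 values against 2, an exact permutation test cannot give a two-sided p below 0.333, so no p is given for the order.

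The genes outside the cluster with the most similar pair of levels, by Euclidean distance of log2(CPM + 1) over the 2 libraries, were Mir28a for Mir17 (distance 0.15), Mir181b-2 for Mir20a (0.088), Mir328 for Mir92-1 (0.10) and Mir410 for Mir18 (0.15). For Mir19a, 2 genes had its exact counts, and for Mir19b-1 there were 53, so no single gene is nearest. A pattern over 2 libraries holds little beyond the level itself.

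The mature sequences of the paralogs follow, printed to show which of them a read could be confused with. Capitals again mark the seed.
miR-106a-5p (Mir106a, chromosome X): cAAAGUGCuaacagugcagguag
miR-20b-5p (Mir20b, chromosome X): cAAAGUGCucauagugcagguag
miR-93-5p (Mir93, chromosome 5): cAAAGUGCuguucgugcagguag
miR-106b-5p (Mir106b, chromosome 5): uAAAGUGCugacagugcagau
miR-18b-5p (Mir18b, chromosome X): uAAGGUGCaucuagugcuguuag
miR-25-3p (Mir25, chromosome 5): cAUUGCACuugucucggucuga

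Both paralog clusters were lower in summed CPM of assigned counts than miR-17-92. Both miR-17-92 and miR-106a-363 encode miR-19b-3p and miR-92a-3p, and reads of these that map to both clusters are in neither sum. The miR-106b-25 cluster, 3 hairpins on the minus strand of chromosome 5, summed to 2494 and 2269 CPM in replicates 2 and 1, below the 3525 CPM (replicate 2) and 3461 CPM (replicate 1) of miR-17-92. The miR-106a-363 cluster, 6 hairpins on chromosome X, summed to 35.3 CPM in replicate 2 and 27.3 in replicate 1. The values of the 3 clusters did not overlap over the libraries, and the same limit on an exact test applies.

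Within the miR-17 seed group, Mir17 and Mir20a together held 56.4% (95% Wilson interval 55.5 to 57.4) and 58.7% (57.8 to 59.5) of the group's counts in replicates 2 and 1. Nearly all the rest came from Mir93, at 1681 CPM in replicate 2 and 1365 in replicate 1, and Mir106b, at 512 in replicate 2 and 553 in replicate 1. Mir93 thus lay between Mir17 and Mir20a in both libraries. Mir106a, whose mature arm differs from miR-17-5p by U10A alone, had 23 counts in replicate 2 and 22 in replicate 1, and Mir17 was 202 times as high in replicate 2 and 248 times in replicate 1. Mir20b had 15 counts in replicate 2 and 16 in replicate 1, and Mir6383, the 7th gene with this seed, had no count.

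Mir18 held nearly all counts of its seed group, 473 of 474 in replicate 2 and 819 of 821 in replicate 1, the others being from Mir18b. The miR-92 seed group summed to 819 and 814 CPM in replicates 2 and 1. Mir92-1 held 54.6% of it (52.3 to 56.9) in replicate 2 and 51.4% (49.3 to 53.4) in replicate 1. The sum and the share leave out reads of miR-92a-3p that map to several loci, and the number of these was not measured. In replicate 2, Mir25 followed at 301 CPM, Mir32 at 28.9 and Mir92-2 at 12.7, and in replicate 1 they were at 351, 27.0 and 10.9 CPM. Mir92-1 was 35.3 times Mir92-2, which encodes the same mature sequence, in replicate 2 and 38.2 times in replicate 1. Reads of miR-92a-3p that map to both loci are in neither count. This ratio therefore does not compare how much miR-92a came from each locus. Mir363 had 11 counts in replicate 2 and 5 in replicate 1, and Mir367 had no count.

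The miR-92 group held 1 gene with a large difference between the libraries. Mir92b had 54 counts in replicate 2 and 14 in replicate 1, or 24.4 CPM in replicate 2 and 5.10 in replicate 1, the second of them under the minimum of 10 CPM in each library that the comparison between them required. When all 629 genes with a count entered the test, its log2 ratio was 2.02 (exact binomial test, Benjamini-Hochberg adjusted p = 1.25e-07), where 20.5% of them passed. Mir92-1 had a log2 ratio of 0.05, and the difference between these 2 ratios was not tested. For the miR-19 seed group the counts were too few for a share to be read, at 1 in replicate 2 and 6 in replicate 1, all of them in the cluster's hairpins.

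**Figure D2:**
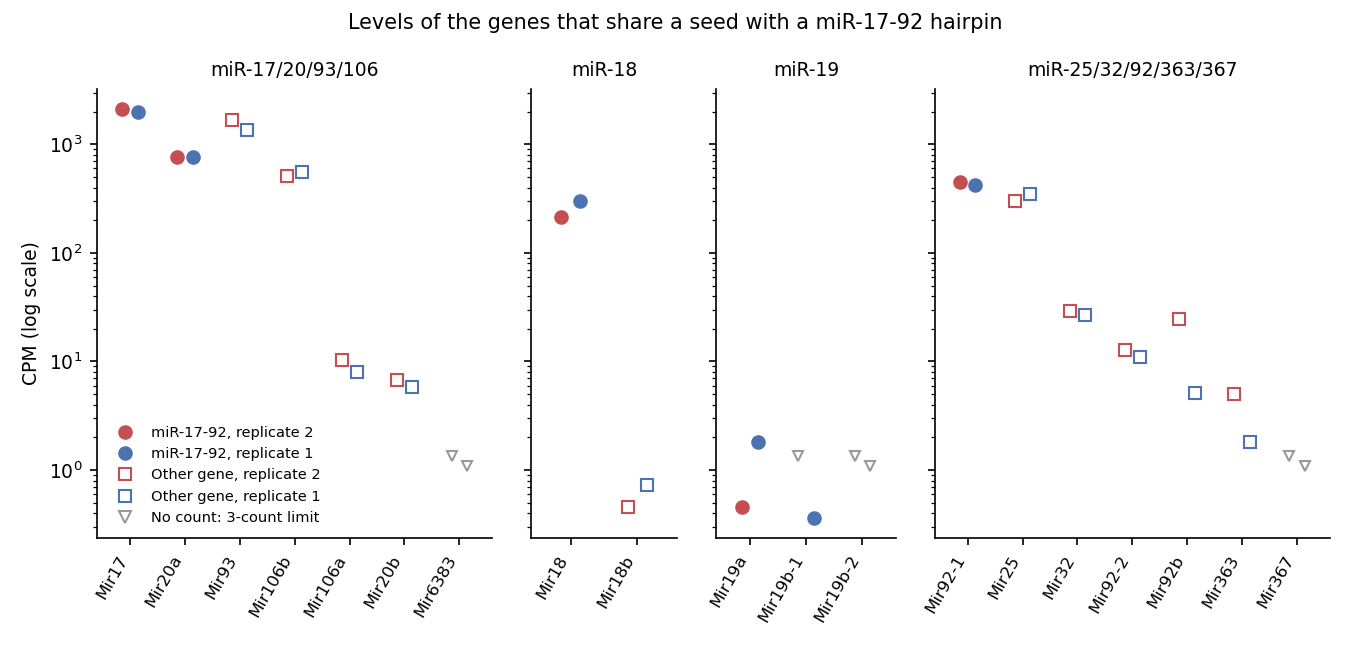
CPM (log axis) of every gene that shares bases 2 to 8 with a miR-17-92 hairpin, 1 panel per seed group, in replicate 2 and replicate 1; filled circles are the cluster's hairpins, open squares other genes and grey triangles the limit of 3 counts. Mir17, Mir93 and Mir20a lead the first panel, Mir18 stands at 214 CPM in replicate 2 and 299 in replicate 1, far above Mir18b, and the miR-19 panel holds no value above 1.82 CPM.

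The spread of levels within the cluster was set beside other rows of same-strand microRNA genes, with neighbours 10 kb or less apart and at least 4 hairpins counted in both libraries. There were 7 such rows. In miR-17-92, where 5 of 6 hairpins qualified, the highest mean level exceeded the lowest by 10.81 on the log2 scale, the third widest by mean level, and the median of the 7 was 10.40. The range of miR-17-92 was 12.18 in replicate 2 alone, still the third, and 10.09 in replicate 1, the fourth after the Mir322 row (10.47). By mean level the widest were a pair of rows of the imprinted region on chromosome 12, led by Mir411 (15.13) and Mir127 (14.81), and the narrowest was the paralog row miR-106a-363 (4.32), although in replicate 2 alone its range of 4.81 exceeded the 4.67 of the Mir532 row. The wide range in miR-17-92 rests on Mir19a. Over hairpins with 10 CPM or more in each library it was 2.99, from Mir17 down to Mir18, the narrowest of 6 rows by mean level. It was 3.29 in replicate 2, wider than the 3.16 of the Mir467e row, and 2.73 in replicate 1, where the Mir467e row had 3.02. The range that a row can show is limited by its highest level, which was 11.8 CPM in miR-106a-363 and 55294 CPM in the Mir411 row. The comparison is a description of these rows, with no test.

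**Figure D3:**
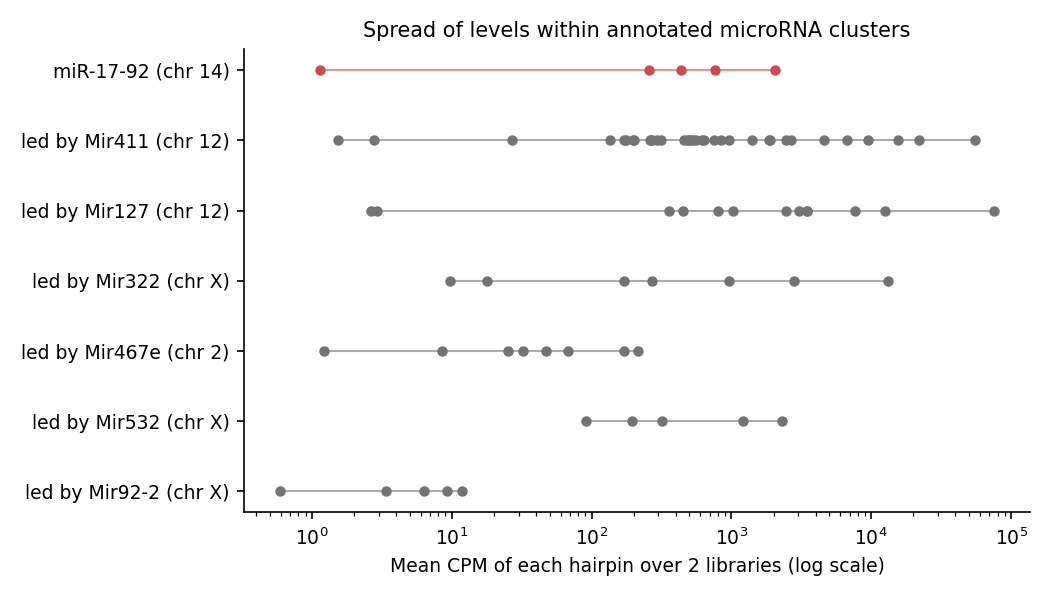
Mean CPM over the 2 libraries (log axis) of each hairpin with a count in both, for miR-17-92 in the top row and the other 6 rows of same-strand hairpins below it; each point is a hairpin and each line runs from the lowest to the highest. In miR-17-92, 4 hairpins sit between 256 and 2042 CPM and Mir19a at 1.14 CPM.

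The libraries were then compared, to see which hairpins differed by more than counting error. The test was a two-sided exact binomial test of each gene's counts given library sizes scaled by the trimmed mean of M-values (TMM), over the 258 genes that reached 10 CPM in each library, and it compares these 2 libraries, not conditions. Log2 ratios place replicate 2 over replicate 1, computed from log2(CPM + 1) after TMM scaling. Mir19a and Mir19b-1 were below that level and were not tested. Of the 4 members tested, 1 passed, against a background of 50.8% of the 258 genes, so 1 of 4 is not above the background. None was higher in replicate 2 (background 19%) and 1 was lower (background 31.8%). Their median log2 ratio was 0.00, beside -0.04 over all genes tested.

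That member was Mir18, with 473 counts in replicate 2 and 819 in replicate 1. Its log2 ratio was -0.53 with a counting standard error of 0.083 (exact binomial test, Benjamini-Hochberg adjusted p = 6.61e-10), lower in replicate 2, short of 2-fold, and the 24th of 258 by size. With edgeR's exact test, which adds the spread between the libraries over all genes, it did not pass (adjusted p = 0.83). By that test 1.16% of the 258 genes passed. The spread was taken from the same replicates that the test compares, so a gene that did not pass is not shown to be alike in both. The ratio of Mir17 was 0.03 (standard error 0.029, adjusted p = 0.35), that of Mir20a was -0.03 (0.047, adjusted p = 0.61) and that of Mir92-1 was 0.05 (0.063, adjusted p = 0.55), all by the exact binomial test. The sign of Mir20a and the call of Mir17 depend on the library sizes. With sizes from total counts Mir20a was at 0.015 and Mir17 passed at 0.08 (adjusted p = 0.013), so the cluster then had 1 member higher and 1 lower in replicate 2.

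The paralogs with enough counts moved in both directions between the libraries. By the same exact binomial test, Mir93 was higher in replicate 2 (log2 ratio 0.25, adjusted p = 2.01e-13), and Mir106b (-0.16, adjusted p = 0.013) and Mir25 (-0.27, adjusted p = 0.00059) of the same cluster were lower. Mir92-2 had a ratio of 0.15 (standard error 0.38, adjusted p = 0.78). None of these 4 passed edgeR's exact test, whose spread was taken from the same libraries that it compares. Of the 9 paralog hairpins, 4 were tested, and the other 5 were under 10 CPM in at least 1 library.

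**Figure D4:**
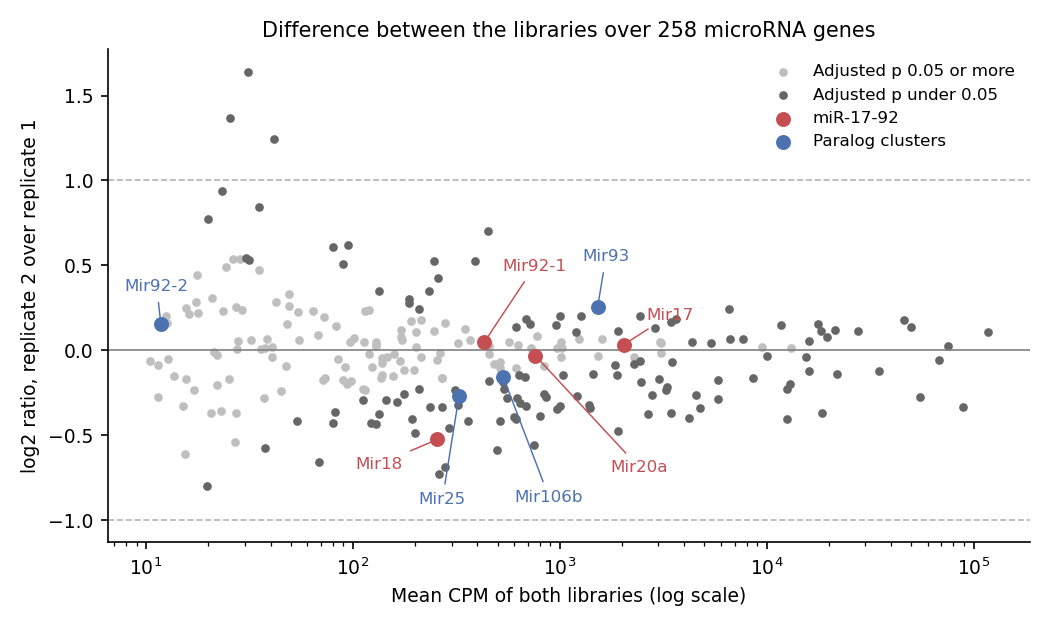
log2 ratio of replicate 2 over replicate 1 against the mean CPM (log axis) for the 258 genes tested; red points are miR-17-92 hairpins, blue points paralogs, dark grey points genes past the exact binomial test and dashed lines 2-fold differences. Mir17, Mir20a and Mir92-1 lie within 0.05 of 0 and Mir18 at -0.53, while blue points lie between -0.27 and 0.25.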

How the data were processed

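Both libraries were deposited as tables of whole-number read counts per microRNA gene, in 3 columns for either strand, the gene's own strand and the opposite strand, with no normalization by the authors. Genome build mm10 and annotation M21 are named in the notes deposited with the tables. The aligner, the counter and the trimming are not given in the sources used here. The 4 lines that name no gene (unmapped, mapped to several loci, outside genes, ambiguous) made up 73.0% and 72.7% of the reads of replicates 2 and 1 and entered no total or test.

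Own-strand counts were used. CPM, ratios and 95% Wilson intervals were computed with Python 3.11.15 and SciPy 1.17.1, and TMM sizes and the exact test with edgeR 4.0.16 in R 4.3.3. The edgeR dispersion was estimated with an intercept only, a biological coefficient of variation of 12.8%. Calls were made at an adjusted p of 0.05 over all genes tested. The binomial procedure was checked on simulated data with counting error only, so the check does not cover spread between replicates. Folding energies came from RNAfold 2.7.2.

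RefSeq sequences matched 1032 of the 2202 genes by symbol, with 82.3% and 83.5% of the counts in replicates 2 and 1, and seed groups hold matched genes only. Named were the members, their paralogs and seed mates, the nearest gene in level and cell type markers. Members and lists were chosen with earlier results of these data known. Clusters named in the comparison of ranges and Mir92b's test were chosen after values were seen.

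Alternatives were other library sizes (total counts, DESeq2 1.42.0), other minimum levels, the either-strand column, edgeR's exact test, leaving out each replicate, CPM without the most abundant gene, and other distances for a cluster.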

Additional observations from a re-analysis of the deposited data

How the results depend on the processing

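Counts of the members were identical with reads on either strand, but CPM changed with its total. The cluster's share was 0.455% with either strand and 0.396% without the most abundant gene. Leaving out 1 replicate only returns the share in the other, 0.352% in replicate 2 and 0.346% in replicate 1. With CPM per either-strand count, Mir17 was at 2661, Mir20a at 992, Mir92-1 at 564 and Mir18 at 334 CPM. The seed group shares with 1 replicate left out are likewise those of the single libraries. They ran from 56.4 to 58.7% (miR-17), 99.76 to 99.79% (miR-18) and 51.4 to 54.6% (miR-92). The cluster's gaps are 35 to 96 bases, so it is the same row with neighbours within 3 kb or 50 kb. Its log2 range therefore stayed at 10.81, the third widest of 7 rows in both settings. The median of the rows was 7.44 within 3 kb and 10.40 within 50 kb. At 10 CPM or more the cluster's range was 2.99. The number of members that differed was 2 with total-count sizes and 0 with edgeR's exact test, which called 3 genes in all against 131, with 15 at an unadjusted p under 0.05. Total-count sizes turned the log2 ratio of Mir20a from negative to 0.015. Mir18 kept its sign and call with total-count and DESeq2 sizes, at each minimum level and with either strand. No paired analysis was possible because there is 1 group of 2 samples. Mir19a and Mir19b-1 had too few counts for a precise level, and why Mir19a had so few was not tested. The reads that mapped to several loci limit Mir19b-1 and Mir92-1.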
